A study of Mus musculus with 4 samples.

Results

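The genes described here are 8 members of the S100 family of small calcium-binding proteins, S100a1, S100a6, S100a10, S100a11, S100a13, S100a14, S100a16 and S100g, of 25437 gene names in the count tables. They were taken by name, and all 8 were present in each of the 4 tables. Earlier results of these data were known when they were chosen, and their levels per lineage and library were part of that choice. The levels and ratios below are therefore descriptions, with no test. The 7 other S100 genes in the tables, S100a2, S100a3, S100a4, S100a8, S100a9, S100b and S100z, stayed at or below 52.2 CPM (a gene's share of all counts, scaled to counts per megacount) in every lineage of every library.

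The study profiled wildtype B6C3F1/J mouse embryos by single-cell RNA sequencing on a microwell system (BD Rhapsody), with 1 library per stage and embryos pooled within it. EDG7.5 and EDG9.5 are stages of the diapause named in the study's title, Reactivated is EDG9.5 followed by 30 h of E2 (the usual abbreviation of estradiol), and E5.5 is the stage after implantation. EDG7.5, EDG9.5 and Reactivated each pooled roughly 200 to 250 blastocysts flushed from the uterus, whereas E5.5 pooled 50 embryos dissected from implantation sites. Samples at E4.5, which the labels also mention, were not analysed here. With 1 library per stage, stage, library, embryo pool and way of collection cannot be told apart, and no difference between stages has a replicate check.

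S100 proteins are small proteins that bind calcium through EF-hand loops, mostly act as dimers, and on binding calcium expose a surface that grips other proteins. They are known as calcium sensors and buffers in epithelia, muscle and immune cells, and several pair with annexins, proteins that bind membranes in a calcium-dependent way. Mouse S100 genes lie mainly in a cluster on chromosome 3, next to other genes of epithelial differentiation, while S100g lies on chromosome X.

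Cells were clustered within each library without any S100 gene and named from marker lists of epiblast, endoderm and trophoblast. EDG7.5 gave 590 trophoblast, 580 endoderm and 488 epiblast cells, EDG9.5 gave 950, 906 and 595, Reactivated gave 163, 303 and 205, and E5.5 gave 3628, 2994 and 2641. Median depth per cell was 5104 UMIs (counted RNA molecules) at EDG7.5, 3817 at EDG9.5, 13155 in Reactivated, and 8725 at E5.5. Every cluster took a lineage name, and no cluster had more markers of another list than of its own among its 10 leading genes. Several clusters, among them every trophoblast cluster of EDG9.5, had 0 markers of any list there. For those clusters this comparison tells nothing about the name. From 1 to 25 cell barcodes were shared between any 2 libraries. CPM is a gene's share of all UMIs summed over a lineage, so it does not give RNA per cell, and intervals (95%, exact Poisson for levels, conditional binomial for ratios) cover counting error only. RNA free in the suspension was gauged with 8 genes, each taken as a marker of 1 lineage. Read in the other 2 lineages they reached a median of 0.473% to 1.16% of their own level across libraries. The highest reading was Pou5f1 in endoderm, at 118% of its epiblast level in EDG7.5 and 110% in EDG9.5. Sparc in epiblast had 9.45%, 9.64%, 11.6% and 4.79% of its endoderm level from EDG7.5 to E5.5. In EDG7.5 trophoblast Pou5f1 had 0 UMIs, and Sparc had 22.1 CPM against 388.9 CPM in epiblast. How much of these readings was free RNA and how much expression in the other lineage was not tested.

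S100a1, S100a13, S100a14 and S100a16 stand side by side within 32.1 kb of chromosome 3 (GRCm38, GENCODE vM21). S100a1 lies at chr3:90511034-90514392 on the minus strand. S100a13 (chr3:90514435-90524581), S100a14 (chr3:90526856-90528837) and S100a16 (chr3:90537254-90543151) follow on the plus strand. S100a6 lies farther along at chr3:90612882-90624181. S100a11 (chr3:93520488-93526287) and S100a10 (chr3:93555080-93564643) form a second group, also on the plus strand, 2896 kb beyond S100a6. S100g lies at chrX:162961992-162964599 on the minus strand.

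The first bases of S100a1 and S100a13 are separated by 42 bases in GENCODE vM21, and the genes point away from each other. In the RefSeq gene table, where S100a13 begins at an earlier base (90514233) than in GENCODE or in its promoter window (90514435), they overlap by 98 bases. Since the strand setting of the counting is not given in the sources used here, reads from that overlap cannot be told apart. Start-site windows (250 bases before and 50 from the start) were found for 6 of the 8 genes in the RefSeq table of GRCm38.p6, and S100a10 and S100a14 had none. Of all 32851 windows in that table, 13.6% hold TATAAA, 7.81% TGANTCA (the AP-1 motif), 35.7% GGGCGG (the GC box) and 37.4% CCAAT, counted on both strands. Stretches of sequence are shown for 4 genes because they belong to the pair of genes with neighbouring, divergent starts, to the gene of endoderm, and to a gene whose levels differed little between Reactivated and EDG9.5. The capitals mark TATAAA in S100g and TGANTCA in S100a11. The S100a1 and S100a13 windows held none of the 4 motifs. TGANTCA was not found in S100a11 alone. An S100a16 window at chr3:90540896-90541195 held 1 TGANTCA and 1 GGGCGG, and the S100a6 window held 1 CCAAT.
S100a1 and S100a13, between the starts of their RefSeq promoter windows, chr3:90514331-90514434, plus strand: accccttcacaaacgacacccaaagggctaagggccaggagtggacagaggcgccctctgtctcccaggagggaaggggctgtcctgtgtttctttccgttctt
S100g, 100 bases before its RefSeq start and 6 from it, chrX:162964594-162964699, minus strand: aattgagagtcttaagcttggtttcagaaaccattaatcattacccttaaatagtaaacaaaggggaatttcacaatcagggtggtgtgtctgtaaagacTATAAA
S100a11, 200 bases before its RefSeq start, chr3:93520296-93520495, plus strand: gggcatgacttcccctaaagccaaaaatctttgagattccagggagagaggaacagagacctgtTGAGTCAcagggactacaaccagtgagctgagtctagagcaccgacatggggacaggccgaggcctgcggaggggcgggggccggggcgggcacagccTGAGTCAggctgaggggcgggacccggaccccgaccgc
The S100a1 and S100a13 stretch lies between the start sites on which their windows were built, not between the window edges. By GENCODE, chr3:90514331-90514392 of this stretch lies inside S100a1, and the last 42 bases lie between the genes. The TATAAA of S100g starts at the annotated first base itself. S100a11 also held 3 matches to GGGCGG, which lie outside the TGANTCA matches. A match is a run of letters, not a measured binding site.

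The family as a whole was most abundant in diapause trophoblast and least abundant in E5.5 epiblast. The 8 genes together made up 6615 CPM (6527 to 6703) of trophoblast at EDG7.5, 6402 at EDG9.5, 3485 in Reactivated, and 1598 at E5.5. In endoderm they summed to 1524, 1562, 741 and 677 CPM across the same 4 libraries, and in epiblast to 1228, 937, 365 and 105 CPM. The leading gene also differed. S100a1 was first in all 3 lineages of both diapause libraries, with 42.8% to 65.4% of the family's UMIs. S100a10 was first in endoderm and epiblast of Reactivated and E5.5, and S100a6 in trophoblast of both, where it held 33.4% and 52.1%.

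**Figure D1:**
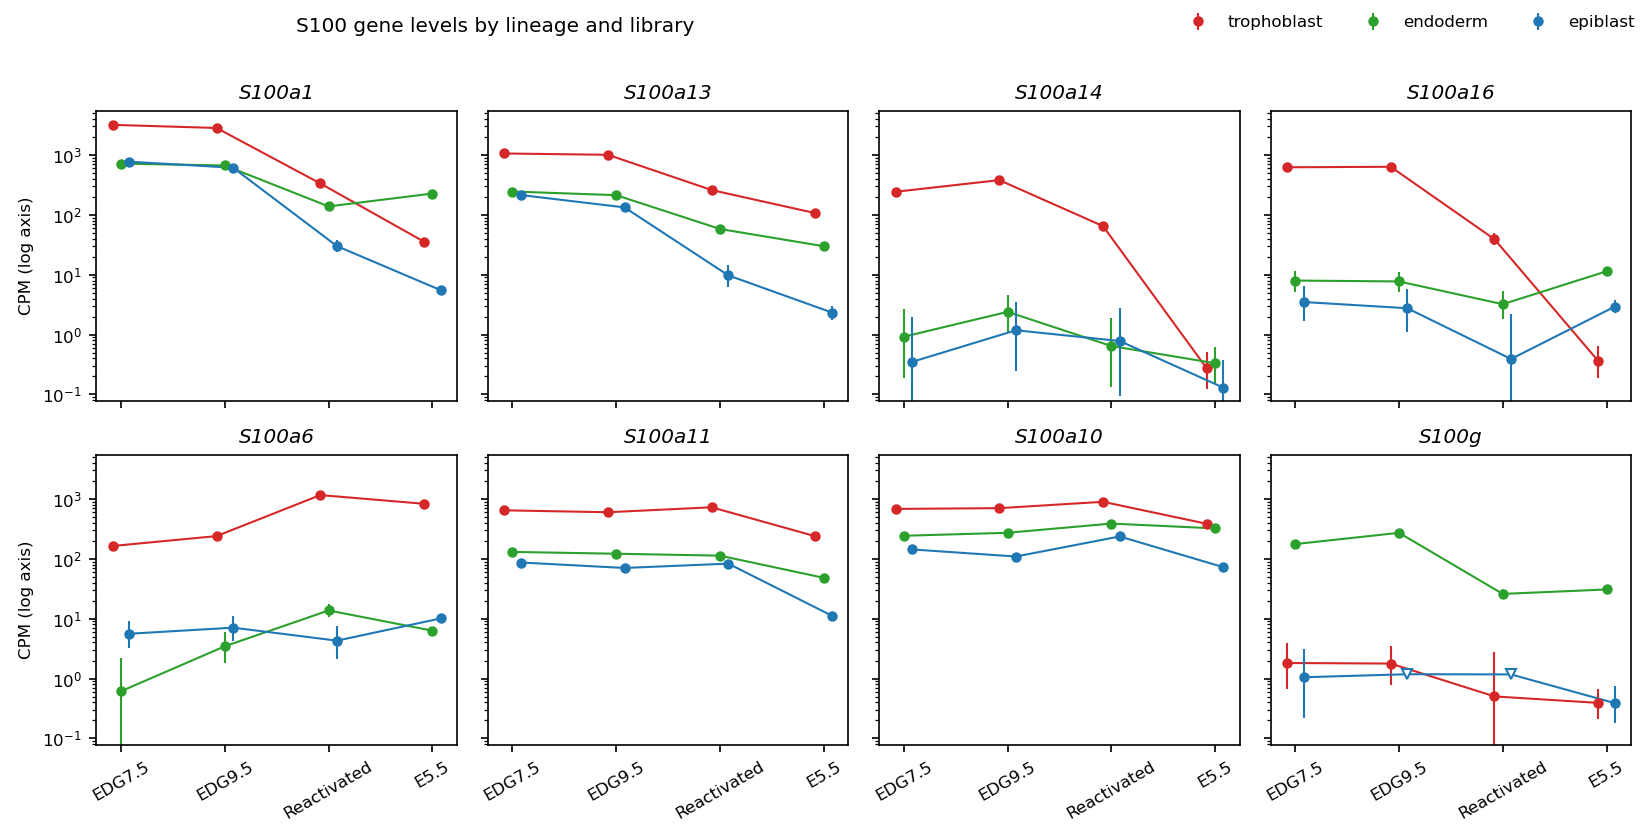
Level of each S100 gene in CPM (log axis) in the 4 libraries from EDG7.5 to E5.5, for trophoblast (red), endoderm (green) and epiblast (blue). Points are summed UMIs per lineage with 95% Poisson intervals, and open triangles mark a count of 0 drawn at the 3-count limit. S100a1 and S100a13 lie lower in Reactivated than in EDG9.5 in every lineage, as do S100a14 and S100a16 in trophoblast and S100g in endoderm. S100a6 in trophoblast lies higher, at 1162 CPM.

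S100a1 is a calcium sensor best known from heart muscle, where it acts on the calcium pumps and channels of the sarcoplasmic reticulum. In trophoblast it had 3191 CPM (3131 to 3253) at EDG7.5, 2832 at EDG9.5, 335 in Reactivated, and 35.6 at E5.5. In endoderm it had 719, 669, 138.5 and 227 CPM in these libraries, and in epiblast 772, 613, 30.05 and 5.52 CPM. The diapause levels were the highest in each lineage. Trophoblast was highest in the first 3 libraries, while the intervals of endoderm and epiblast overlapped at EDG7.5 and, narrowly, at EDG9.5. In E5.5, by contrast, endoderm held 6.39 times the trophoblast level and 41.15 times the epiblast level. Reactivated had 0.118 times the EDG9.5 level in trophoblast (0.109 to 0.128), 0.207 times in endoderm (0.1895 to 0.226) and 0.0490 times in epiblast (0.0384 to 0.0616).

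The low S100a1 level of Reactivated epiblast and trophoblast was not shared by all their cells. In epiblast, a cluster of 9 cells led by Nanog, Klf4 and Gpnmb had 915 CPM (665 to 1228), while the clusters of 88 and 108 cells had 15.05 and 11.2 CPM. Those 9 cells gave 57.1% of the lineage's S100a1 UMIs. In trophoblast, a cluster of 8 cells led by Adh1 and Gjb2 had 3328 CPM (2826 to 3893), against 263 CPM in the rest of the lineage. The 915 CPM lie above the 613 CPM of EDG9.5 epiblast, while the interval of the 3328 CPM overlaps that of EDG9.5 trophoblast (2783 to 2881), whose cluster of 431 cells had 3393 CPM. The clusters had median depths of 5051 and 5354 UMIs, below the 12530 of Reactivated epiblast and the 11413 of its trophoblast. The part of depth in these values was not tested. Without them, the log2 ratio (10 CPM added to both sides) of E5.5 over Reactivated in epiblast was -0.58, against -1.37 with them.

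S100a13, which lets FGF1 and interleukin-1 alpha leave cells without a signal peptide, had a similar course at lower levels. Trophoblast had 1061 CPM at EDG7.5, 1009 at EDG9.5, 260 in Reactivated, and 107 at E5.5. Endoderm had 246, 213, 58.1 and 29.9 CPM, and epiblast 215, 133, 9.76 and 2.33 CPM in these libraries. Its order of lineages was the same in all 4 libraries, with trophoblast first and epiblast last, although endoderm and epiblast lay close in EDG7.5. Reactivated had 0.258 times the EDG9.5 level in trophoblast (0.235 to 0.282), 0.272 times in endoderm and 0.0732 times in epiblast. Unlike S100a1, S100a13 in endoderm was lower in E5.5 than in Reactivated, at 0.515 times (0.448 to 0.593), whereas S100a1 was at 1.64 times (1.51 to 1.78).

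S100a14, a family member of epithelia, was a trophoblast gene of diapause. It had 243 CPM at EDG7.5 trophoblast, 381 at EDG9.5, 64.8 in Reactivated, and 0.271 at E5.5. Endoderm and epiblast held at most 2.40 CPM in any library. A UMI was seen in 61.4% of EDG9.5 trophoblast cells, against 0.883% of endoderm and 0.504% of epiblast cells, at median depths of 3834, 3571 and 4031 UMIs. With each cell thinned to 1000 UMIs these shares were 28.6%, 0.246% and 0.156%. At E5.5 the intervals of the 3 lineages overlapped. The 9 UMIs in 3628 E5.5 trophoblast cells put S100a14 at 0.00419 times its Reactivated level (0.00187 to 0.00820).

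S100a16, a widely expressed member with weak calcium binding, went with S100a14 in trophoblast. It had 624 CPM at EDG7.5 trophoblast, 636 at EDG9.5, 39.2 in Reactivated, and 0.362 at E5.5. Reactivated was at 0.0616 times the EDG9.5 level (0.0485 to 0.0771) and E5.5 at 0.00923 times the Reactivated level (0.00457 to 0.0171). Reactivated trophoblast clusters of at least 10 cells ranged from 1.76 CPM in 37 cells led by Crip1 to 121 CPM in 33 cells led by BC051665. S100a14 had 15.8 and 148 CPM in the same clusters. In E5.5 the order of lineages had turned. Endoderm had 11.4 CPM (10.2 to 12.7) and epiblast 2.93 CPM, both above the 0.362 CPM of trophoblast. In the earlier libraries endoderm had 7.98, 7.72 and 3.22 CPM and epiblast 3.50, 2.75 and 0.390 CPM.

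Within diapause trophoblast, S100a14 and S100a16 marked the same clusters. In EDG9.5 the cluster of 431 cells led by Acta1 and Gjb2 had 1010 CPM of S100a16 and 528 CPM of S100a14. The clusters of 320 and 199 cells, which were led by H19, Msx1 and Crip1, had 366 and 261 CPM of S100a16 and 284 and 227 CPM of S100a14. EDG7.5 had the same split, with 1010 CPM of S100a16 in the Gjb2 cluster of 267 cells against 215 and 291 CPM in those led by Msx1 or H19. Over EDG7.5 trophoblast cells the 2 genes had a Spearman correlation of 0.48 (n = 590), and in EDG9.5 one of 0.45 (n = 950). Cells of a library share its capture, and their depth enters both genes. Both are among the leading genes of the Gjb2 cluster in each diapause library, so the cluster values describe the clusters. S100a10 ran the other way in EDG9.5, with 545 CPM in the Gjb2 cluster and 970 CPM in the cluster of 199 cells.

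S100a6, or calcyclin, binds annexins and the ubiquitin-ligase adaptor Cacybp. It was the only member past 2-fold higher in Reactivated than in EDG9.5 in trophoblast. Trophoblast had 164 CPM at EDG7.5, 240 at EDG9.5, 1162 (1115 to 1211) in Reactivated, and 832 at E5.5. Endoderm had 0.614, 3.46, 13.7 and 6.31 CPM, and epiblast 5.601, 7.08, 4.29 and 10.1 CPM in these libraries. The Reactivated level in trophoblast was 4.85 times that of EDG9.5 (4.51 to 5.21), and the E5.5 level 0.716 times that of Reactivated. A UMI was found in 93.9% of Reactivated and 39.8% of EDG9.5 trophoblast cells, and with cells thinned to 1000 UMIs in 58.7% and 14.1% of them. E5.5 had 97.2% before thinning and 49.7% after it. Of the 64 UMIs in Reactivated endoderm, 53 came from a single cell, so the endoderm value there describes that cell.

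In EDG9.5 54.3% of the trophoblast S100a6 UMIs came from the 199 cells led by Crip1 and H19, at 398 CPM (367 to 432), while the other clusters had 124.5 and 179 CPM. In Reactivated the clusters of 37 cells led by Crip1 and of 85 cells led by Hand1 had 1478 and 1254 CPM, against 484 CPM in the 33 cells led by BC051665 and 213 CPM in the 8 cells led by Adh1. In E5.5 the 439 cells led by the placental lactogen Prl3d1, a gene of trophoblast giant cells, had 1896 CPM (1857 to 1935). The other trophoblast clusters of E5.5 lay between 445 and 970 CPM. S100a6 is itself among the leading genes of the EDG9.5 cluster of 199 cells and the Reactivated clusters of 37 and 85 cells.

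S100a11 binds annexin A1 and takes part in membrane repair and the cornified envelope of skin. It was nearly level through reactivation. Trophoblast had 646 CPM at EDG7.5, 601 at EDG9.5, 726 in Reactivated, and 238 at E5.5. Endoderm had 130.5, 122, 113 and 48.2 CPM, and epiblast 86.8, 70.4, 83.1 and 11.2 CPM in these libraries. Reactivated over EDG9.5 gave 1.21 in trophoblast (1.13 to 1.29), 0.929 in endoderm (0.818 to 1.06) and 1.18 in epiblast (0.964 to 1.45), none of them 2-fold. E5.5 was lower than Reactivated in every lineage, at 0.328, 0.426 and 0.134 times in trophoblast, endoderm and epiblast. The endoderm value passes 2-fold by little, with a log2 ratio of -1.08, and of -0.99 when doublets are kept. A pseudogene, S100a11-ps, is annotated on another chromosome, and reads shared with it could shift this count.

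S100a10, or p11, does not respond to calcium and forms a tetramer with annexin A2 (Anxa2) under membranes. Its lineages lay within 6.43 times of each other in every library. Trophoblast had 682.5 CPM at EDG7.5, 703 at EDG9.5, 897 in Reactivated, and 385 at E5.5. Endoderm had 243, 272, 388 and 323 CPM, and epiblast 143.5, 109, 236.5 and 72.5 CPM in these libraries. Reactivated was the highest library in all 3 lineages, by 1.28 times over EDG9.5 in trophoblast (1.20 to 1.35), 1.43 times in endoderm (1.32 to 1.54) and 2.16 times in epiblast (1.87 to 2.50). The epiblast log2 ratio was 1.05, and 0.70 with cells thinned to 1000 UMIs, which is below 2-fold. In E5.5 trophoblast and endoderm came within 1.19 times of each other, the closest of the 4 libraries.

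S100g, or calbindin-D9k, is the calcium buffer of intestinal absorption and is known as an estrogen-responsive gene of the rodent uterus. Here it was a gene of endoderm. Endoderm had 176 CPM (162 to 191) at EDG7.5, 272 (256 to 289) at EDG9.5, 25.9 (21.5 to 31.0) in Reactivated, and 30.8 (28.7 to 32.9) at E5.5. Trophoblast had 1.82, 1.78, 0.502 and 0.392 CPM, and epiblast 1.05, 0, 0 and 0.388 CPM in these libraries. A single EDG9.5 endoderm cell held 167 of the 1022 UMIs there. As a mean of CPM over cells, endoderm had 171.5 at EDG9.5 and 161 at EDG7.5. By a limit of 3 counts, the 0 of Reactivated epiblast allows up to 1.17 CPM and that of EDG9.5 up to 1.18 CPM, and the upper Poisson bounds are 1.44 and 1.45 CPM. Reactivated endoderm was at 0.0953 times the EDG9.5 level (0.0783 to 0.115), and E5.5 at 1.19 times the Reactivated level (0.979 to 1.45), an interval that includes 1. A UMI was found in 24.4% of Reactivated and 25.3% of EDG9.5 endoderm cells, but at median depths of 14262 and 3571 UMIs. Thinned to 1000 UMIs the shares were 2.40% in Reactivated and 11.5% in EDG9.5, against at most 0.126% in trophoblast or epiblast of any library.

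The level of S100g differed between endoderm clusters. In EDG9.5 endoderm the 96 cells led by Spink3 and by Cubn, a receptor gene of absorptive visceral endoderm, had 936 CPM (866 to 1010) and gave 65.3% of its UMIs from 10.6% of the cells. The other endoderm clusters of EDG9.5 lay between 54.1 and 132 CPM, so without those 96 cells the lineage had 117 CPM. S100g is itself among the 10 leading genes of those 96 cells, so these values describe the clusters. EDG7.5 had its highest level, 299 CPM (259 to 343), in 95 cells led by mitotic genes such as Ccna2 and Mki67. In E5.5 the highest level, 128 CPM (115 to 141), lay instead in the 410 cells led by Lama1 and Fst, against 18.9 CPM in the rest of endoderm. In Reactivated no cluster exceeded 32.1 CPM.

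**Figure D2:**
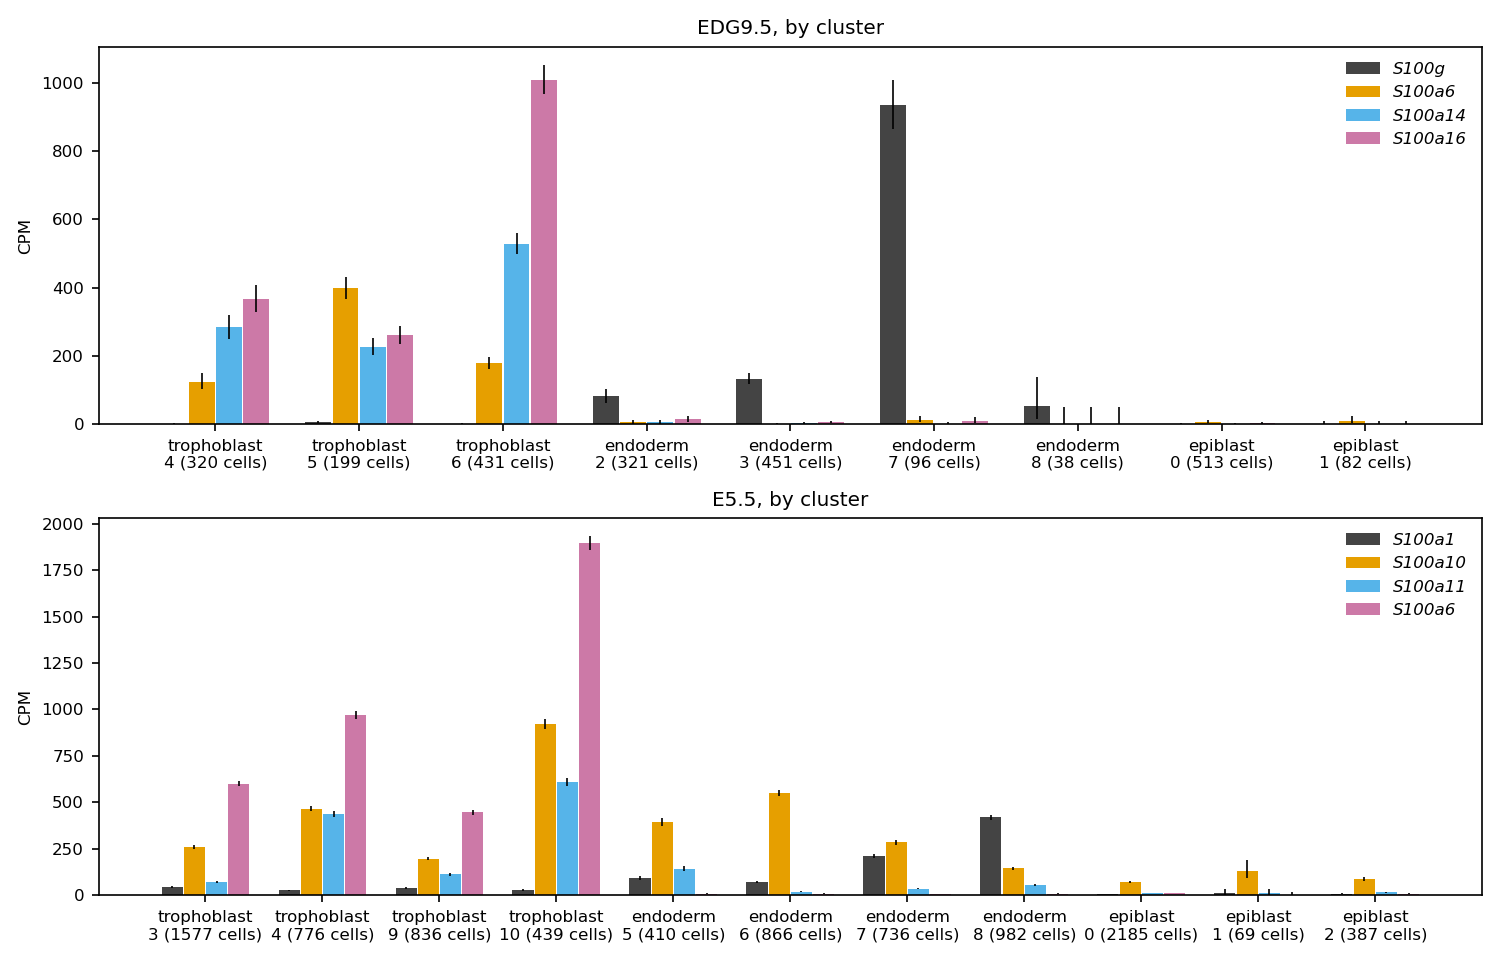
CPM of S100 genes in each cluster of EDG9.5 (top) and E5.5 (bottom), grouped by lineage with cell numbers; bars start at 0 and carry 95% Poisson intervals. In EDG9.5 S100g stands at 936 CPM in 1 endoderm cluster of 96 cells, and in E5.5 S100a6 peaks at 1896 CPM in 439 trophoblast cells led by Prl3d1.

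E5.5 endoderm divided the 2 most abundant members of the lineage. S100a1 had 419 CPM (406 to 433) in the 982 cells led by Cited1, Apoc2 and Cubn, 208 CPM in the 736 cells led by Apob, 93.3 CPM in the 410 cells led by Lama1 and 69.2 CPM (63.4 to 75.4) in the 866 cells led by Cer1 and Lhx1. S100a10 had 144.5, 283, 393 and 548 CPM in the same order of clusters. The orders are exact opposites. Over the 2994 endoderm cells of E5.5 the Spearman correlation of the 2 genes was -0.36. Cells of this library share capture and differ in depth, and since S100a1 is among the leading genes of the first cluster, these values describe the clusters.

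Between stages, the counts of members past 2-fold are given over lineages together, since the choice of members used these values and nothing is read from them. In EDG9.5 over EDG7.5, 0 of the 22 measured combinations of gene and lineage (at least 10 UMIs, of 24) passed 2-fold, against 0.109% of all measured genes higher and 0.0601% lower. In Reactivated over EDG9.5, 2 of 20 were higher and 9 were lower, against 7.5% and 12.8% of all genes. In E5.5 over Reactivated, 0 of 22 were higher and 10 were lower, against 3.69% and 3.31% of all genes. In trophoblast the median log2 ratio over all 8 members was -1.04 for Reactivated over EDG9.5, and -1.92 over the 7 measured ones, which leave out S100g with 1 UMI in Reactivated and 8 in EDG9.5. For E5.5 over Reactivated it was -1.39, with all 8 measured. The medians over all measured genes were -0.08 and 0.09. These stage comparisons share libraries: Reactivated stands in both.

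**Figure D3:**
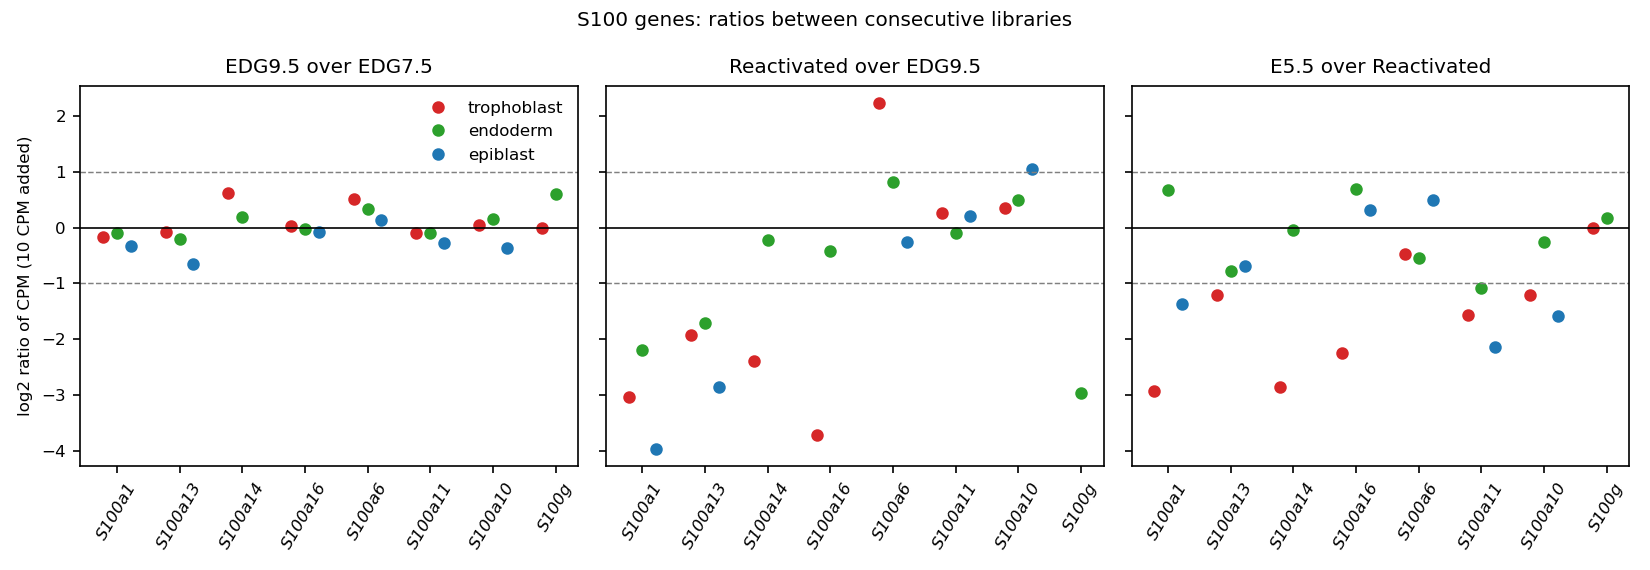
Log2 ratios of CPM (10 CPM added) between consecutive libraries for each measured S100 gene, in trophoblast (red), endoderm (green) and epiblast (blue); dashed lines mark 2-fold. In Reactivated over EDG9.5 S100a1 in epiblast lies at -3.96 and S100a6 in trophoblast at 2.23, while in EDG9.5 over EDG7.5 all points lie between the dashed lines.

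Between lineages of a library, trophoblast over epiblast was past 2-fold higher in 26 of 29 measured combinations of gene and library and lower in 0, against 6.64% and 12.3% of all genes. Trophoblast over endoderm was higher in 24 of 32 and lower in 6, against 5.2% and 10.4%. Endoderm over epiblast was higher in 11 of 30 and lower in 0, against 7.75% and 6.77%. The 6 lower values of trophoblast over endoderm were S100g in all 4 libraries and S100a1 and S100a16 in E5.5. Lineages of a library share its capture and sequencing.

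The pairs of members that are neighbours on the chromosome were compared over the 12 combinations of lineage and library. Pearson's r of log2 CPM with 10 added was 0.91 for S100a1 and S100a13, 0.97 for S100a14 and S100a16, 0.90 for S100a10 and S100a11 and 0.74 for S100a13 and S100a14. The 17 other pairs on chromosome 3 ranged from 0.11 to 0.83 with a median of 0.66. Of these neighbours, S100a13 and S100a14 lay inside that range and the other pairs above it. Pairs with S100g, on another chromosome, ranged from -0.47 with S100a6 to 0.20 with S100a1. The 12 points are not independent, since 3 lineages share each library, and these values are given as descriptions.

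The genes most like each member were sought in the same way among 3872 genes with at least 100 CPM somewhere. S100a1 was closest to Limk2 (r = 0.96), a kinase of the actin regulator cofilin, to the fatty acid carrier Fabp3 and to the small GTPase Mras. S100a6 was closest to the trophoblast transcription factor Elf5 (r = 0.99), the keratin Krt7 and Irx3, and Elf5 and Krt7 also served to name trophoblast. S100a10 was closest to Serpinb6a, the actin-branching subunit Arpc1b and Ugp2, with r from 0.94 to 0.97. S100a11 was closest to the actin-binding calponin Cnn2 (r = 0.98), Myadm and Pqlc1. S100a13 was closest to Atn1 (r = 0.98), Idh3b of the citric acid cycle and Flii.
S100a14 was closest to Dppa1 (r = 0.996), Smpdl3a and Acpp, and S100a16 to the annexin Anxa9 (r = 0.99), Sh3d21 and the ectonucleotidase Enpp1. Dppa1 had 1735 CPM in EDG9.5 trophoblast, 298 in Reactivated and 0.874 in E5.5, the same steep course as S100a14. Anxa9 had 103, 7.54 and 0.994 CPM there. S100g was closest to the growth hormone receptor Ghr (r = 0.98), the endoderm transcription factor Sox17 and Lhfpl2. Sox17 had 636 CPM in EDG9.5 endoderm, 141.5 in Reactivated and 100.5 in E5.5, and is one of the genes that named endoderm.

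The binding partners of S100 proteins did not vary as a block. Anxa2, partner of S100a10, had 373 CPM at EDG7.5 trophoblast, 364 at EDG9.5, 951 in Reactivated, and 381 at E5.5. Endoderm had 56.2, 74.0, 186 and 24.5 CPM of Anxa2, and epiblast 19.95, 19.7, 126 and 4.31 CPM in these libraries. Like S100a10, it was highest in Reactivated in every lineage, at 2.61 times EDG9.5 in trophoblast (2.44 to 2.79), 2.52 times in endoderm and 6.43 times in epiblast (4.76 to 8.85). In E5.5 the pair came apart by cluster. The 439 Prl3d1 cells had 921 CPM of S100a10 and 1177 CPM of Anxa2, but the 866 endoderm cells led by Cer1 and Lhx1 had 548 CPM of S100a10 and 3.58 CPM (2.36 to 5.20) of Anxa2.

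Ahnak, a very large scaffold protein that binds the S100A10 and annexin A2 complex, was lower in Reactivated than in EDG9.5 in all lineages, where S100a10 was higher. Trophoblast had 1788 CPM at EDG7.5, 2235 at EDG9.5, 185 in Reactivated, and 136 at E5.5. Endoderm had 553, 733, 23.6 and 12.8 CPM, and epiblast 632, 587.5, 42.2 and 2.37 CPM. Reactivated over EDG9.5 was 0.0829 in trophoblast, 0.0322 in endoderm and 0.0718 in epiblast. The 8 trophoblast cells of Reactivated led by Adh1 had 1131 CPM of Ahnak.

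**Figure D4:**
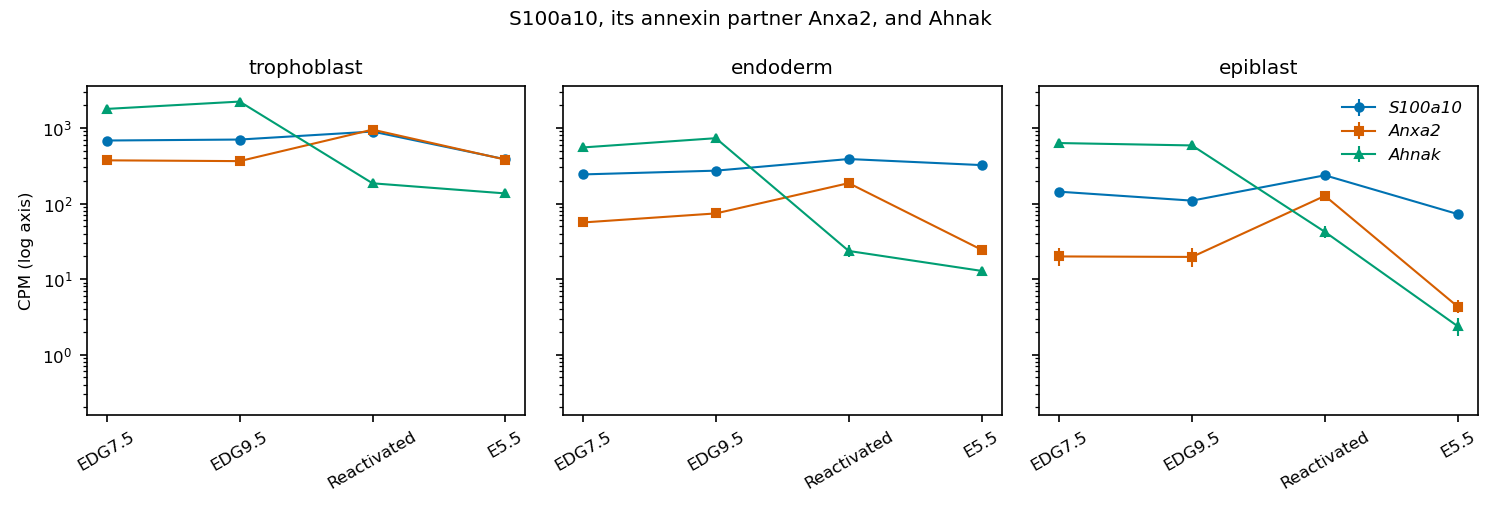
CPM (log axis) of S100a10 (circles), its partner Anxa2 (squares) and the scaffold Ahnak (triangles) in the 4 libraries from EDG7.5 to E5.5, in trophoblast, endoderm and epiblast, with 95% Poisson intervals. S100a10 and Anxa2 are highest in Reactivated, while Ahnak lies lower there than in EDG9.5, at 185 CPM against 2235 CPM in trophoblast.

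Cacybp, the calcyclin-binding protein, had 142 CPM at EDG7.5 trophoblast, 128.5 at EDG9.5, 468 in Reactivated, and 554 at E5.5. Its Reactivated level was 3.64 times that of EDG9.5 in trophoblast (3.28 to 4.04), where S100a6 was also higher, but also 2.05 times in epiblast, where S100a6 had few UMIs. S100pbp, a nuclear S100-binding protein, was lower in Reactivated than in EDG9.5 in all lineages, at 0.284 times in trophoblast, 0.341 times in endoderm and 0.355 times in epiblast. Of the 8 listed partners, 5 were measured in trophoblast for Reactivated over EDG9.5, with 1 past 2-fold higher and 2 lower. Of all genes measured in trophoblast for this comparison, 9.85% were higher and 11.4% lower.

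Among 12 annexins, the other calcium-dependent membrane binders, 10 were measured in trophoblast for Reactivated over EDG9.5, with 2 higher, 1 lower and a median log2 ratio of 0.20, where 9.85% of all genes were higher and 11.4% lower. Anxa2 was among the higher, and Anxa9 was lower, at 0.0733 times. In endoderm 3 of 7 were higher, where 5.59% of all genes were higher and 10.5% lower. In epiblast 1 of 6 was higher and 1 lower, where 7.26% of all genes were higher and 16.4% lower. The lower one in epiblast was Anxa5, at 5.85 CPM in Reactivated against 28.3 CPM in EDG9.5. Anxa4 had 233 CPM in Reactivated endoderm against 79.9 CPM in EDG9.5. Anxa5 in trophoblast was highest in E5.5, with 341.5 CPM against 71.3 CPM in Reactivated. Anxa6 had 145 CPM in Reactivated trophoblast against 243.5 in EDG9.5, Anxa7 217 against 128, and Anxa3 106 against 73.6.

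Of 10 other listed EF-hand proteins of the cytosol, 9 were measured in each lineage for Reactivated over EDG9.5. They had 4 higher and 0 lower in trophoblast, 4 higher and 1 lower in endoderm, and 3 higher and 1 lower in epiblast. Of all genes, 5.59% were higher and 10.5% lower in endoderm, and 7.26% were higher and 16.4% lower in epiblast. Efhd2 had 1134 CPM in Reactivated trophoblast against 539 in EDG9.5, but 131 against 282 CPM in endoderm and 8.59 against 39.3 CPM in epiblast. Pdcd6 (ALG-2) had 376 CPM in Reactivated trophoblast against 148 in EDG9.5. Sri (sorcin) had 109.5 CPM in Reactivated endoderm against 39.9 in EDG9.5. Of 12 genes listed for calcium stores, 10 were measured in trophoblast, with 1 higher and 1 lower. These shares are near the 9.85% and 11.4% of all genes. The chaperone Calr had 4188 CPM in Reactivated endoderm against 1474 in EDG9.5, and Rcn1 239 against 506.

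Transcellular calcium transport needs an entry channel, a buffer such as S100g and an exit pump, and of the 7 listed genes only the plasma membrane pump Atp2b1 reached 100 CPM. In endoderm, the lineage of S100g, Atp2b1 had 279 CPM at EDG7.5, 286 at EDG9.5, 440 in Reactivated, and 515 at E5.5. Reactivated was at 1.54 times EDG9.5 there (1.43 to 1.66), while S100g was at 0.0953 times. In epiblast Atp2b1 had 76.9 CPM in Reactivated against 458 CPM in EDG9.5, and in trophoblast 78.9 against 176.5 CPM.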

How the data were processed

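Each of the 4 tables gives whole-number UMI counts per gene and cell barcode as deposited by the authors. The submitters' processing notes list mm10, featureCounts 1.6.4 from Subread, UMI-tools 1.0.1 and STAR 2.7.1a. The sources used here do not give the annotation, the strand setting or how barcodes were selected. Totals were 9620232 counts at EDG7.5, 10994918 at EDG9.5, 9270833 in Reactivated, and 87507141 at E5.5. Cells with at least 1000 UMIs, 500 genes and under 25% mitochondrial counts were kept, and Scrublet doublets were removed (12, 7, 2 and 278 cells). Each library was clustered in scanpy 1.11.5 (log CPM, 2000 variable genes without S100 genes, 30 components, 15 neighbours, Leiden resolution 1). Clusters were named from marker lists when the best list led by 0.5 log2. UMIs were summed per lineage; ratios had 10 CPM added, with 2-fold as the size counted. The interval and ratio steps were tested on simulated data. Named genes are the 8 members, list genes with at least 100 CPM somewhere and the 3 genes most correlated with each member; genes that name clusters were added after their values were seen. Members and lists were chosen with earlier results of these data known. Alternatives covered cell filters, doublets, clustering, totals, TMM factors (edgeR 4.0.16), averaging over cells, thinning and the added CPM. Leaving out clusters under 10 cells was added after seeing the data. The values of 1 listed gene are not reported here.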

Additional observations from a re-analysis of the deposited data

How the results depend on the processing

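No direction past 2-fold turned round under any alternative run. Sizes did move: 83 of 96 levels and 160 of 168 log2 ratios left their counting interval under some alternative. Averaged over cells, S100a1 in Reactivated trophoblast had 424.3 CPM against 335, and S100a6 in EDG9.5 trophoblast 176.7 against 239.9. With 50 CPM added, 17 of the 88 single calls fell below 2-fold. Counts of members past 2-fold that moved by over 1.5 times were these. With 1 CPM added in place of 10, 1 was higher in EDG9.5 over EDG7.5 (main 0), 3 were higher in E5.5 over Reactivated (main 0), and 1 was lower in endoderm over epiblast and 1 in trophoblast over epiblast (main 0 each). With 50 CPM added, 1 was higher in Reactivated over EDG9.5 (main 2), 6 were lower in E5.5 over Reactivated (main 10), 6 were higher in endoderm over epiblast (main 11) and 3 were lower in trophoblast over endoderm (main 6); adding more shrinks ratios of low genes by construction. Thinned cells left 1 higher in Reactivated over EDG9.5, and a mitochondrial limit of 10% gave 1 lower in endoderm over epiblast. Of 88 single calls, those lost included S100a10 in epiblast, Reactivated over EDG9.5 (log2 0.70 thinned, 0.85 with 50 CPM), S100a13 in trophoblast, E5.5 over Reactivated (-0.98 thinned, main -1.21), and S100a1 in trophoblast over endoderm of Reactivated (0.88 without the cluster of 8 cells, main 1.22). TMM factors moved the median of all genes by 0.19 in epiblast and 0.18 in endoderm for Reactivated over EDG9.5, and less than 0.04 elsewhere. No paired analysis was possible because each stage has 1 library and the labels give no replicate numbers. Depth limits S100a14, S100a16, S100a6 and S100g outside their main lineage.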

Other observations

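S100a8 and S100a9, which together form calprotectin of neutrophils and monocytes, were outside the 8 genes and were looked at after their values were seen. Their UMIs lay in trophoblast only, with 0 in endoderm and in epiblast of all 4 libraries. S100a8 had 3 UMIs at EDG7.5, 74 at EDG9.5, 90 in Reactivated, and 31 at E5.5 trophoblast, and S100a9 had 4, 41, 104 and 44. The totals differ between libraries. As CPM, S100a8 was at 0.908, 16.45, 45.2 and 0.934 in these libraries, and S100a9 at 1.21, 9.12, 52.2 and 1.33. In Reactivated trophoblast 71 of 163 cells (43.6%) held a UMI of either gene, with at most 6 S100a8 UMIs in a cell. In EDG9.5 the 74 S100a8 UMIs came from 6 of 950 cells, and a single cell held 44. All 6 belonged to the cluster of 199 cells led by Crip1 and H19, the one with the most S100a6. The 7 immune markers summed to 77.9 CPM in Reactivated trophoblast, of which Cd52 gave 75.4 CPM. Ptprc, Lyz2 and Tyrobp were at 0 there, and Csf1r had 3 UMIs. In EDG7.5, EDG9.5 and E5.5 trophoblast the same markers summed to 6.66, 3.34 and 29.6 CPM.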
